A study of Psophocarpus tetragonolobus with 12 samples.

Results

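The last interval of pod ripening in winged bean (Psophocarpus tetragonolobus), Day 37 to Day 45 after anthesis, was described across all genes that reached 5 FPKM or more at either stage. FPKM expresses the fragments of a gene relative to its length and to all mapped fragments of the library. Of 30392 genes in the deposited table, 15902 met this rule. The pods came from FP15, a purple-podded line that was the maternal parent of the study's cross. No treatment was applied, and the 2 groups, Day 45 pods and Day 37 pods, differ by age alone in the labels. At each stage 3 plants gave a library each, made from polyadenylated RNA without strand information, and with Day 30 and Day 15 the series has 12 libraries. The table holds 1 value per gene and stage as a whole number, so the spread between plants is unknown and no test was run. The depth per library was not analysed here. Rounding alone allows an error of up to 0.5 FPKM in each value, and this is the error given below as "within rounding". The labels name pods and the methods name pod and seed tissues. In bulk RNA, fewer cells of a type and less RNA per cell cannot be told apart.

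As a legume pod matures, its wall stops growing, lignified layers are laid down and the chloroplasts of the green tissue are dismantled, while the seeds inside fill with storage proteins and then make proteins that protect the drying embryo. Purple pods and seed coats owe their colour to anthocyanins. These are made from phenylalanine through chalcone synthase (CHS), chalcone isomerase (CHI), flavanone 3-hydroxylase (F3H), flavonoid 3'-hydroxylase (F3'H), dihydroflavonol reductase (DFR) and anthocyanidin synthase (ANS), then glycosylated and carried into the vacuole. In Arabidopsis many of these genes carry the name transparent testa (TT), after mutants with pale seed coats.

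Genes that fell outnumbered genes that rose. The change was taken as log2((Day 45 + 1)/(Day 37 + 1)), and a gene is said here to have fallen or risen where this value reached 1 in size, a 2-fold change on the FPKM + 1 scale. By that measure 396 genes fell, 2.49% of those described, and 245 rose, 1.54%. At 4-fold the counts were 37 genes lower (0.233%) and 35 higher (0.22%), so the excess was nearly absent among the largest changes. With the limit at 1.5-fold, 1109 genes were lower and 776 higher. The median change was 0 on the log2 scale. Counting differences of any size, 6773 genes had a lower value at Day 45, 7115 a higher value and 2014 the same value, so the excess did not extend to small differences. The excess also depended on how the columns are scaled. The deposited values summed to 754576 FPKM over all genes at Day 45, against 795780 FPKM at Day 37. With both columns set to the same sum, 272 genes fell and 264 rose, and 50.7% of the calls were falls in place of 61.8%.

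Part of both counts came from genes near the lower limit. Of the genes described, 590 were below 5 FPKM at Day 45 and entered through Day 37, and 196 of them had fallen. Another 437 were below 5 FPKM at Day 37 and entered through Day 45, and 112 of them had risen. Such genes had to differ between the stages. Among the 14875 genes at 5 FPKM or more at both stages, 200 fell and 133 rose. Just inside the limit, 746 genes had a higher value of exactly 5 FPKM, of which 60 fell and 32 rose. Just outside it, 894 genes had a higher value of 4 FPKM, of which 35 would have been called lower and 20 higher.

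The earlier intervals gave other balances by the same rule. From Day 30 to Day 37, a step of 7 days against 8 days for the last one, 174 of 15941 genes fell (1.09%) and 228 rose (1.43%). From Day 15 to Day 30, a step of 15 days, 1779 of 16918 genes fell (10.5%) and 1455 rose (8.6%). These intervals share a stage with their neighbours, so a high or low value at Day 37 would move 2 of them in opposite ways.

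The genes that fell had mostly been higher before. Their median level was 31, 18, 13 and 5 FPKM at Day 15, 30, 37 and 45. Of the 396, 251 had their highest value at Day 15, 82 at Day 30 and 63 at Day 37. The genes that rose ran the other way, with median levels of 1, 3, 5 and 16 FPKM over the same stages, and 241 of 245 had their highest value at Day 45. Day 15 and Day 30 were not used in the change described, so they give a view of both sets from other libraries. Between Day 15 and Day 30, 165 of the genes that later fell (41.7%) had already fallen by 2-fold or more, against 770 of all 15902 genes (4.84%). Of the genes that later rose, 108 (44.1%) had already risen over that first step, against 1570 of all genes (9.87%). These 15902 genes were chosen by their level at Day 37 or Day 45. Genes that dropped below 5 FPKM before then and stayed low are therefore missing from this base. With genes chosen at Day 15 or Day 30, 10.5% fell and 8.6% rose over that first step. Of the 396 that later fell, 196 entered through Day 37 alone, and of the 245 that rose, 112 entered through Day 45 alone.

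Falls were most frequent among the transcripts that had been abundant in younger pods. Of the 100 genes with the highest values at Day 30, 16 fell between Day 37 and Day 45 and 0 rose. Of the 100 highest at Day 15, 23 fell and 0 rose, and 84 had a lower value of any size at Day 45. The same 100 genes gave 4 that fell and 0 that rose over the step before, from Day 30 to Day 37. Ranked at Day 15, 27.9% of the 43 genes at 1000 FPKM or more fell, against 1.17% of the 7021 genes between 5 and 20 FPKM, the class with the lowest share. Ranked at Day 30, the share was 15.4% of 52 genes at 1000 FPKM or more, 11.6% of 86 genes between 500 and 1000 FPKM and 1.87% of 4750 genes between 20 and 50 FPKM. Genes below 5 FPKM also fell more often than those of middle level, in 5.18% of 1389 genes ranked at Day 15 and 6.02% of 764 ranked at Day 30. No gene at 500 FPKM or more at Day 30 rose by 2-fold, whereas 19% of the 764 genes below 5 FPKM at Day 30 did. Genes in these lowest classes are described only because they reached 5 FPKM or more at Day 37 or Day 45. The filter thus favours a difference between the 2 late stages there, and the shares of these classes do not show an effect of level. The ranking at Day 37, which uses a stage of the change itself, is given as a description: 14 of the top 100 fell and 1 rose.

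**Figure D1:**
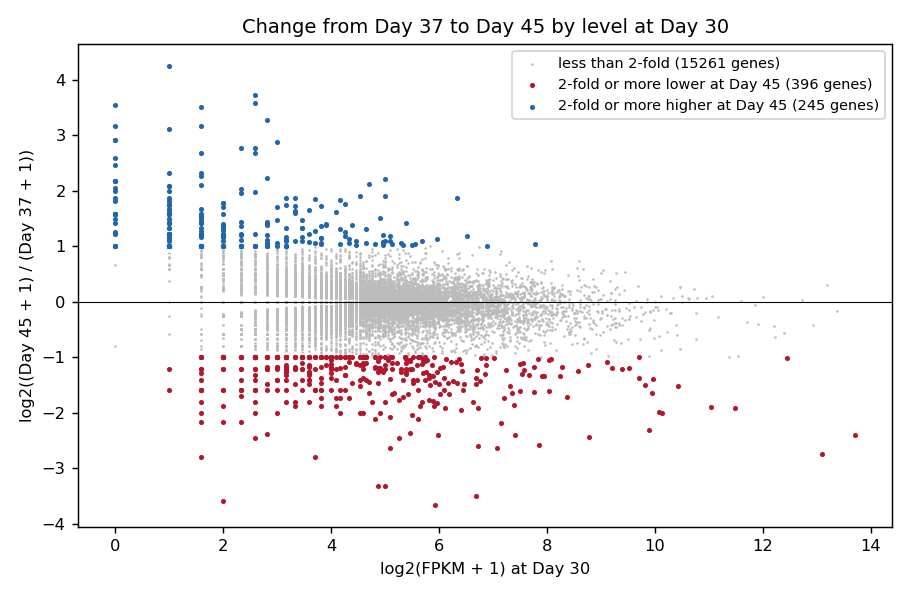
Each point is 1 of 15902 genes, with its level at Day 30 as log2(FPKM + 1) on the horizontal axis and its change from Day 37 to Day 45 on the vertical axis, both without replicates. The 245 genes that rose (blue) lie toward the left, while genes that fell (red) run across the whole range up to the most abundant transcripts.

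**Figure D2:**
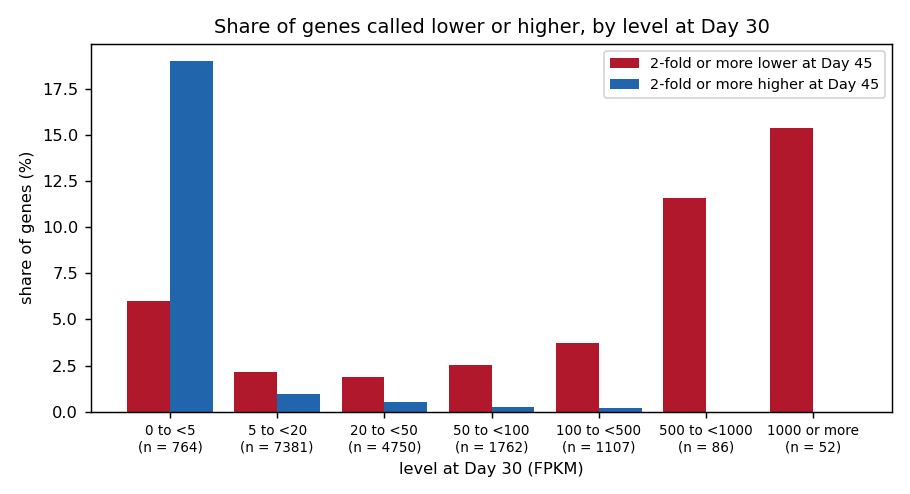
Bars give the percent of genes 2-fold or more lower (red) or higher (blue) at Day 45 than at Day 37, in classes of their level at Day 30 (FPKM). The share that fell was 15.4% in the class of 1000 FPKM or more, where the share that rose was 0, and the share that rose was 19% in the lowest class. Genes of the lowest class are drawn only because they reached 5 FPKM or more at Day 37 or Day 45.

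The top genes held a smaller share of the pod transcriptome at Day 45. The 100 highest genes of each stage held 20.5%, 24.2%, 24.4% and 21.8% of the FPKM sum at Day 15, 30, 37 and 45. It took 1135 genes to reach 50% of the sum at Day 45, against 975 at Day 37. There were 42 genes at 1000 FPKM or more at Day 45, against 53 at Day 37. Over all genes, losses added up to 103595 FPKM and gains to 62391 FPKM. The losses were concentrated, with 25.5% in the 10 largest and 49.9% in the 100 largest. The 10 largest gains held 11.7% of the gain and the 100 largest 30.9%.

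A pair of genes made up 11.6% of all the FPKM lost. Psote05G0125200 (Chr05.1, 19266124 to 19266819) stood at 9768, 13416, 7942 and 1492 FPKM at Day 15, 30, 37 and 45, a level 5.32-fold lower at Day 45 than at Day 37. It was the most abundant transcript of the whole table at both Day 15 and Day 30. Psote04G0285300 (Chr04.3, 7630009 to 7635382) stood at 7704, 8759, 6526 and 972 FPKM and was 6.71-fold lower at Day 45. The sources used here do not pair either ID with a gene name. A further gene on Chr05.1 (19416067 to 19416466), close to the first of the pair, had 3981, 949, 417 and 83 FPKM. Both members of the pair had kept their levels through Day 37 to within a factor of 2 of their Day 30 values, whereas this neighbour had dropped at every stage.

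Loss of an abundant transcript did not always amount to a fall. The most abundant gene of both late stages (Chr06.3, 2750653 to 2751046) had 15872 FPKM at Day 45, against 17883 FPKM at Day 37. A gene on Chr01.3 (5003445 to 5004888) had 7069 FPKM at Day 45, against 9431 FPKM at Day 37. The first dropped by 2011 FPKM and the other dropped by 2362 FPKM, both under the 2-fold limit. On the gaining side, the gene second in rank at Day 45 (Chr03.1, 7368160 to 7376607) had 12113 FPKM at Day 45, against 9796 FPKM at Day 37.

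A stretch of Chr04.3 lost several abundant transcripts together. Between 6811029 and 7635382, where the study's tables list copies of PA2, the putative albumin 2 genes of pea and bean seeds, 9 of 39 genes were among those described, and 6 fell and 0 rose. Psote04G0285300 lies at its end. In the same stretch, 5 unnamed genes spanned between 834 and 838 bp each, and 4 of them fell. The gene at 7017436 had 2, 2857, 1832 and 484 FPKM at Day 15, 30, 37 and 45. The gene at 7107477 had 1, 2108, 1375 and 369 FPKM. Those at 7132902 and 7424612 had 44 and 27 FPKM at Day 45, against 236 and 108 FPKM at Day 37, and both were listed at 0 at Day 15. All 4 were thus nearly silent at Day 15, high in the middle of pod growth and 3.73- to 5.36-fold lower at the end, unlike Psote04G0285300, which was already high at Day 15. The PA2 gene Psote04G0281900, in the same stretch, had 10 FPKM at Day 45, against 26 FPKM at Day 37. Whether these unnamed genes are copies of one another or of PA2 was not examined. Genes alike in sequence may share reads, and how such reads were counted was not examined, so their separate levels are uncertain. The stretch was chosen after its values were seen.

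The steepest falls were of genes that had been high at Day 15 and were already low by Day 37. Psote01G0211200 (Chr01.4, 331805 to 340894), which the study's duplicate table pairs with the PA1 gene (putative albumin 1) Psote01G0210100, had 606, 60, 37 and 2 FPKM, a change of -3.66 on the log2 scale (-3.94 to -3.42 within rounding). Psote01G0210100 itself had 4 FPKM at Day 45, against 13 FPKM at Day 37. A gene on Chr08.2 (5378111 to 5387904) had 764, 101, 56 and 4 FPKM over the 4 stages. Of the 37 genes that fell by 4-fold or more, 23 had their highest value at Day 15 and 21 had been at 100 FPKM or more then. The second steepest fall was of another kind. A short gene on Chr01.3 (4286399 to 4286602) had 2, 3, 23 and 1 FPKM, high at Day 37 alone. In all, 18 of the 396 genes that fell were more than 2-fold higher at Day 37 than at both earlier stages.

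The largest rises were of genes nearly silent until the last stage. Psote09G0092300 (Chr09.4, 5512013 to 5513217) had 0, 1, 1 and 37 FPKM at Day 15, 30, 37 and 45, a change of 4.25 (3.91 to 4.68 within rounding). Psote03G0374000 (Chr03.5, 24181116 to 24183258) had 1, 5, 4 and 65 FPKM, a change of 3.72. The third largest rise was of Psote03G0119900, the homologue of the soybean seed allergen P34, a cysteine protease-like protein, with 0, 5, 1 and 23 FPKM (3.23 to 4.03 within rounding). All 35 genes that rose by 4-fold or more had their highest value at Day 45, and 23 of them were listed at 0 at Day 15. They remained modest in level, between 5 and 107 FPKM at Day 45 with a median of 23 FPKM. Only 9 of the 35 were at 5 FPKM or more at both late stages. The others entered through Day 45 alone, so a low value at Day 37 was built in. A switch from 1 FPKM or 0 at Day 37 to 5 FPKM or more at Day 45 was seen for 20 genes, of which 2 were listed at 0 at Day 37 and 17 at Day 15. The reverse, 5 FPKM or more at Day 37 and 1 FPKM at Day 45, was seen for 39 genes, and none of the genes described was listed at 0 at Day 45. Both sets were defined by their values at these 2 stages.

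The gains of most FPKM came from genes already on the rise. A gene on Chr03.5 (17056926 to 17060326) had 21, 31, 431 and 1611 FPKM, the second largest gain of all genes and the highest level at Day 45 among those that rose. A gene on Chr05.3 (21730369 to 21734628) had 3, 79, 213 and 778 FPKM. Another on Chr04.2 (12811701 to 12812690) had 8, 217, 638 and 1317 FPKM. This last one lies inside BGLU10, described below.

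**Figure D3:**
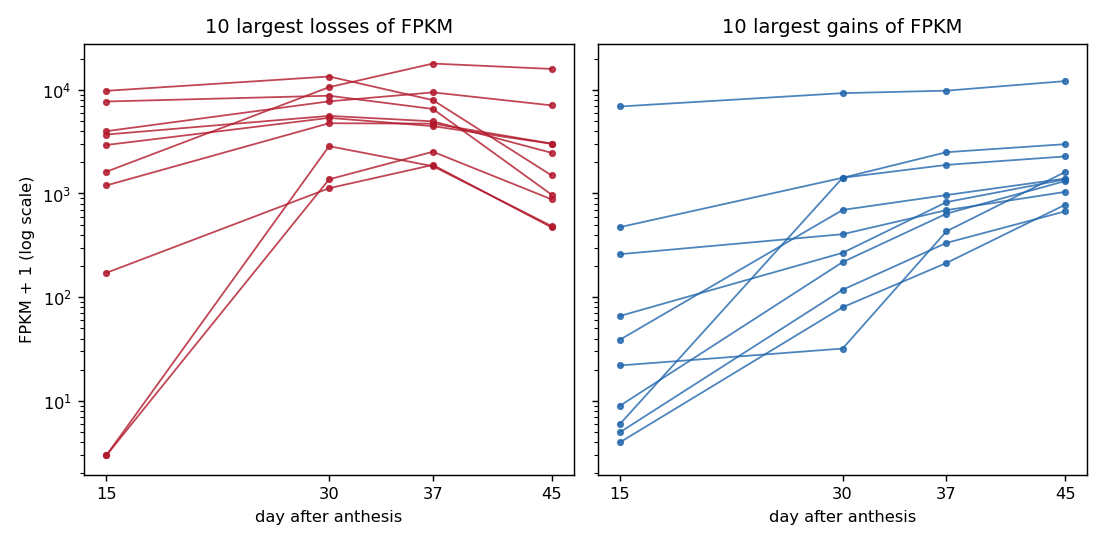
Lines follow the 10 genes with the largest losses of FPKM from Day 37 to Day 45 (left, red) and the 10 with the largest gains (right, blue) over the 4 stages, as FPKM + 1 on a log axis, with 1 value per stage. All 10 losing genes peaked at Day 30 or Day 37, while the gaining genes climbed throughout, for example 21, 31, 431 and 1611 FPKM.

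The study's supplementary tables name 423 genes of seed storage, pigment and regulation, and 255 of them were among the genes described. Of these 18 fell (7.06%) and 11 rose (4.31%), with a median change of 0, against 2.49% and 1.54% of all genes described, also with a median of 0. The same all-gene shares apply to each list below. The lists were put together by the study around these traits, partly with values from these libraries in view, and are not independent evidence of direction.

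**Figure D4:**
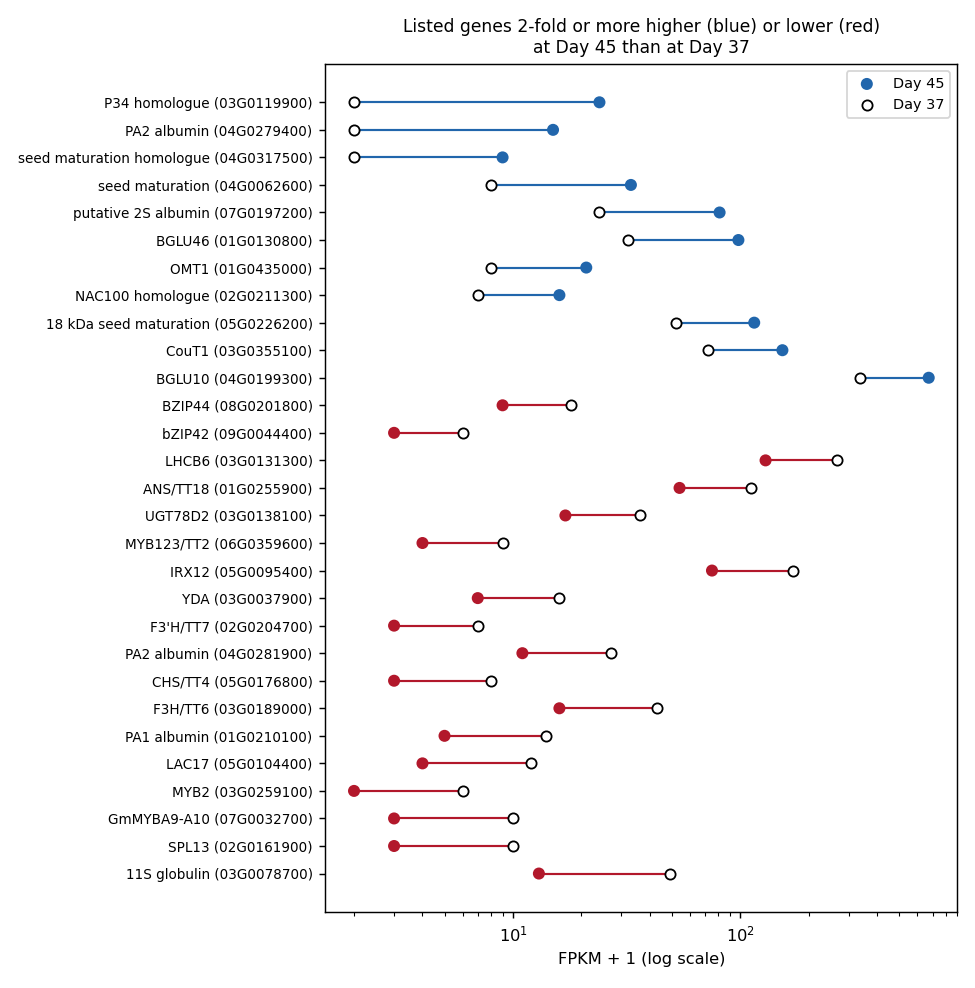
Filled circles give FPKM + 1 at Day 45 and open circles FPKM + 1 at Day 37, on a log axis, for the 11 listed genes that rose (blue) and the 18 that fell (red), ordered by their change and without replicates. BGLU10 reached the highest level of these at Day 45 (672 FPKM), and P34 moved furthest, to 23 FPKM in Day 45 pods against 1 FPKM in Day 37 pods.

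Values of seed storage genes and of seed maturation genes changed in both directions. The list of globulins and legumins also holds seed maturation genes. Of its 10 genes described, 3 rose and 1 fell, with a median change of 0.26. The 3 that rose were seed maturation protein genes and a homologue listed with them, given next, and no gene named as a storage globulin reached a 2-fold rise. Of 5 albumin genes 1 rose and 2 fell. The seed maturation protein gene Psote04G0062600 had 0, 0, 7 and 32 FPKM at Day 15, 30, 37 and 45. Psote04G0317500, listed beside it as a homologue, had 0, 0, 1 and 8 FPKM. The gene for an 18 kDa seed maturation protein, Psote05G0226200, had 31, 13, 51 and 114 FPKM. That for the seed maturation protein PM36, Psote06G0400900, did not rise, with 26, 47, 48 and 42 FPKM. Proteins of this kind accumulate late in seed development, as the embryo prepares to dry. The vicilin-like gene Psote04G0317000, for a storage globulin of the 7S type, had 58 FPKM at Day 45, against 29 FPKM at Day 37, a change of 0.98 that rounding could carry past the limit (0.94 to 1.01).

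The 11S globulin gene Psote03G0078700, for a legumin-type storage protein, went against the seed maturation genes that rose. It had 148, 68, 48 and 12 FPKM, a change of -1.91. Its tandem copy Psote03G0078800 was listed at 2 FPKM at Day 45 and at 0 at the 3 earlier stages, too low to be among the genes described. Among the albumins, Psote04G0279400, listed under PA2, had 0, 0, 1 and 14 FPKM, while the PA2 gene of the Chr04.3 stretch and the PA1 gene fell, as given above. Of the putative 2S albumins, small sulphur-rich storage proteins, Psote07G0197200 had 0, 18, 23 and 80 FPKM. The abundant Psote06G0099600 had 786 FPKM at Day 45, against 840 FPKM at Day 37. Of 15 transcription factor genes tied to seed storage, 1 rose and 1 fell. The riser was Psote02G0211300, a homologue of the NAC domain gene NAC100, with 15 FPKM at Day 45, against 6 FPKM at Day 37.

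The 8 genes set aside as markers of seed tissue summed to 205, 137, 185 and 284 FPKM at Day 15, 30, 37 and 45, of which 5, 3, 1 and 0 were listed at 0. They include the P34, 11S, vicilin-like and seed maturation genes above, so 3 rose and 1 fell. ABI3, a master regulator of seed maturation in Arabidopsis, stood at 1 FPKM at both late stages. The part of seed RNA in the rises was not tested, nor that of green tissue in the falls. The 2 markers of green tissue summed to 295, 274, 270 and 132 FPKM. LHCB6, an antenna protein of photosystem II, made up nearly all of this, with 128 FPKM at Day 45, against 264 FPKM at Day 37, after 267 FPKM at Day 30. It had thus held its level until Day 37. With both columns set to the same sum it did not reach 2-fold. ABC4, needed for making phylloquinone and plastoquinone, had 4 FPKM at Day 45, against 6 FPKM at Day 37. The study's seed protein locus qSSP-1 holds genes that soybean data place in leaf, and these all had lower values at Day 45, 5 of 5, of which LHCB6 alone fell. Of those placed in root or stem, 8 of 9 had lower values and 0 reached 2-fold, under the deposited scaling. The other classes, whose names are abbreviations from the soybean data, were mixed, with lower values for 7 of 11 genes of the class GLOB/HRT/COT, 1 of 5 of DS and 1 of 3 each of EM, FB and SDL. Over the whole interval 25 of 40 genes had lower values, 2 fell and 1 rose, against 42.6% with lower values over all genes described.

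Copies of the flavonoid enzymes differed in their course. Falls were seen for 1 of 8 CHS, 1 of 5 F3H, 1 of 5 F3'H and 1 of 2 ANS genes described, and for 0 of 6 CHI and 0 of 5 DFR genes, and no copy of these enzymes rose. ANS/TT18 (Psote01G0255900), which forms the coloured anthocyanidin, had 266, 226, 110 and 53 FPKM at Day 15, 30, 37 and 45, a change of -1.04 that did not reach 2-fold with both columns set to the same sum. F3H/TT6 (Psote03G0189000) had 129, 75, 42 and 15 FPKM, a change of -1.43. CHS/TT4 (Psote05G0176800), at the entry to the pathway, had 2 FPKM at Day 45, against 7 FPKM at Day 37, and F3'H/TT7 (Psote02G0204700) had 2 FPKM, against 6 FPKM. Both low copies were short of 2-fold with a pseudocount of 5, and F3'H/TT7 also in the worst case of rounding. DFR/TT3 (Psote08G0200700) had 164, 94, 60 and 33 FPKM and CHI/TT5 (Psote04G0009400) had 73, 41, 28 and 16 FPKM, both short of 2-fold over the last step. UGT78D2 (Psote03G0138100), which glucosylates flavonoids in Arabidopsis, had 110, 73, 35 and 16 FPKM. In each of these but F3'H/TT7, which was at 8 FPKM at both early stages, the value at Day 15 was above that at Day 30.

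Other copies of the same enzymes, with their highest values later, stayed within 2-fold over the last step. CHI (Psote04G0009600) had 27, 732, 1096 and 885 FPKM. F3H (Psote02G0110700) had 143, 374, 363 and 418 FPKM, CHS/TT4 (Psote01G0233200) had 49, 213, 287 and 291 FPKM, and F3'H (Psote06G0058000) had 43, 215, 216 and 204 FPKM. A further F3'H/TT7 copy (Psote06G0042800) had 9, 14, 14 and 12 FPKM. All CHS genes described bear the TT4 name, so a TT name does not separate copies that fell from copies that held. DFR (Psote03G0413000) had 143 FPKM at Day 45, against 181 FPKM at Day 37, and ANS (Psote07G0201100) had 40 FPKM, against 32 FPKM. The 43 genes described of CHS, CHI, F3H, F3'H, F3'5'H, DFR, ANS and the glycosyl- and acyltransferases were split by their values at Day 15 and Day 30, after this pattern had been seen. Of 13 with Day 15 above Day 30, 4 fell, 0 rose and 10 had a lower value of any size, with a median change of -0.77. Of the other 30, 1 fell and 2 rose, with a median change of -0.01. Over all genes described the same split gave 264 falls and 36 rises among 6528 (median -0.10), and 132 falls and 209 rises among 9374 (median 0.07). The CHS copies on chromosome 1 lie close together and may share reads, so their separate values are uncertain.

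**Figure D5:**
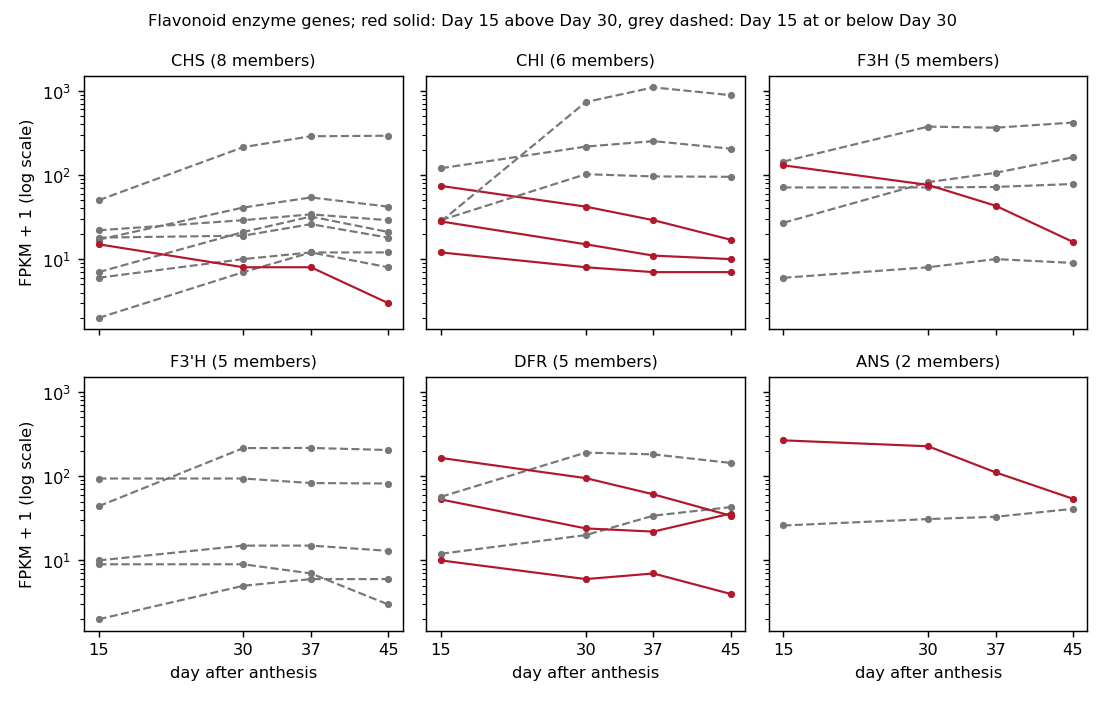
Each line is 1 gene copy of an enzyme over the 4 stages, as FPKM + 1 on a log axis with 1 value per stage. Copies with Day 15 above Day 30 (red, solid) run down to Day 45 in most panels, as for ANS with 266, 226, 110 and 53 FPKM, except for a DFR copy at 35 FPKM at Day 45, against 21 FPKM at Day 37, and a CHI copy at 6 FPKM at both late stages. Of the other copies drawn (grey, dashed), 1 fell, an F3'H copy with 2 FPKM at Day 45, and 0 rose.

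Genes bearing a TT name had lower values as a group, a grouping also made after the values were seen. Of 22 described, 5 fell, 0 rose and 19 had a lower value of any size, with a median change of -0.58 (-0.52 with both columns set to the same sum, where 4 fell). The 22 include the 8 CHS copies, of which 6 had a lower value and those on chromosome 1 may share reads. Over all genes described, 2.49% fell and 42.6% had a lower value. Besides the enzymes above they include MYB123/TT2 (Psote06G0359600), a MYB activator of proanthocyanidin synthesis in the Arabidopsis seed coat, with 3 FPKM at Day 45, against 8 FPKM at Day 37, short of 2-fold with a pseudocount of 5 or in the worst case of rounding. TT8 (Psote04G0319200), its bHLH partner, had 5 FPKM at Day 45, against 8 FPKM at Day 37, and TTG1 (Psote02G0121100), the WD-repeat partner, had 20 FPKM, against 21 FPKM. GSTF12/TT19 (Psote07G0206000), which carries anthocyanins to the vacuole, had 506, 477, 336 and 223 FPKM. MATE/TT12 (Psote08G0030900) and AHA10/TT13 (Psote05G0353100), a vacuolar transporter and its proton pump, had 3 and 31 FPKM at Day 45, against 6 and 41 FPKM at Day 37. The MYB gene GmMYBA9-A10 (Psote07G0032700) fell to 2 FPKM at Day 45, against 9 FPKM at Day 37. The MYB113 copies PtMYB113a and PtMYB113b, whose Arabidopsis counterpart activates anthocyanin genes, were at 4 and 6 FPKM at Day 45 and at 5 FPKM each at Day 37, within rounding of no change.

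Some enzymes that decorate anthocyanins rose. The coumaroyltransferase gene Psote03G0355100 had 0, 31, 71 and 152 FPKM at Day 15, 30, 37 and 45. BGLU10 (Psote04G0199300), listed as a glucosyltransferase of coumaroylated anthocyanins, had 4, 117, 333 and 672 FPKM. Its span of 37629 bp contains the whole of another gene, which had 1317 FPKM at Day 45, against 638 FPKM at Day 37. A further gene inside the span had 45 FPKM at Day 45, against 56 FPKM at Day 37. Without strand information reads of the inner genes may not be separable from those of BGLU10. Exons were not compared, so the level of BGLU10 is uncertain. Of 11 glycosyl- and acyltransferases described, these 2 rose and UGT78D2 fell.

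Upstream of the flavonoids, most genes of PAL, C4H and 4CL, the steps shared with lignin, had lower values without reaching 2-fold. PAL1 (Psote04G0213400) had 326 FPKM at Day 45, against 425 FPKM at Day 37, and C4H (Psote08G0082200) had 324 FPKM, against 368 FPKM. The span of this C4H gene contains another gene, with 356 FPKM at Day 45, against 403 FPKM at Day 37. Whether the 2 share reads was not examined. PAL2 (Psote04G0075900) differed, with 60 FPKM at Day 45, against 43 FPKM at Day 37. Of 9 genes of lignin synthesis and laccases, 2 fell, 1 rose and 8 had a lower value, with a median change of -0.42 that kept its sign under the 4 other scalings tried. IRX12 (Psote05G0095400), a laccase of secondary wall lignin in Arabidopsis, had 1, 216, 169 and 74 FPKM, and LAC17 (Psote05G0104400), another such laccase, had 2, 86, 11 and 3 FPKM. The methyltransferase CCoAOMT1 (Psote03G0183300) had 396 FPKM at Day 45, against 530 FPKM at Day 37. The riser was 1 of the OMT1 copies (Psote01G0435000), with 20 FPKM at Day 45, against 7 FPKM at Day 37. BGLU46 (Psote01G0130800), a name given in the pigment table, had 2, 16, 31 and 97 FPKM.

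Few regulators moved by 2-fold. SPL13 (Psote02G0161900), a squamosa promoter-binding factor of phase change in Arabidopsis, had 36, 13, 9 and 2 FPKM. A gene of the FT/TFL1 family of flowering regulators (Psote05G0180000) had 1, 50, 84 and 143 FPKM, short of 2-fold over the last step. MYB2 (Psote03G0259100) fell to 1 FPKM at Day 45, against 5 FPKM at Day 37. The kinase gene YDA (Psote03G0037900), of the MAP kinase cascade that shapes stomata in Arabidopsis, fell to 6 FPKM, against 15 FPKM. The leucine zipper genes BZIP44 (Psote08G0201800) and bZIP42 (Psote09G0044400) had 8 and 2 FPKM at Day 45, against 17 and 5 FPKM at Day 37, both exactly at the limit. Of 9 WRKY genes 0 moved by 2-fold and 7 had higher values (median 0.36), among them PtWRKY70 (Psote05G0080300) with 25 FPKM at Day 45, against 16 FPKM at Day 37. Of 3 NAC genes, NAC2 (Psote03G0334800) had 18, 162, 227 and 275 FPKM. None of 12 genes of ethylene signalling and ERF factors moved by 2-fold, with a median change of 0. The same held for 13 light signalling genes, with a median of 0.19.

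The 2 genes used as RT-qPCR references in the study did not behave alike. PtELFa (Psote09G0074300) had 570 FPKM at Day 45, against 556 FPKM at Day 37, while the tubulin gene PtTUB6 (Psote05G0184000) had 326 FPKM, against 549 FPKM.

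The genes that moved were spread over the genome, with a few local groups. The share that fell ran from 1.86% to 2.8% over the 9 chromosomes and the share that rose from 1.23% to 1.8%. Of the 396 that fell, 44 (11.1%) lay next to another that fell, and of the 245 that rose, 27 (11%) lay next to another that rose. The longest run of falls was 4 genes on Chr01.1 (8028782 to 8031815), with 8, 1, 7 and 6 FPKM at Day 45, against 31, 5, 27 and 20 FPKM at Day 37. The longest run of rises was 3 genes on Chr01.6 (3544615 to 3551995), with 43, 53 and 71 FPKM at Day 45, against 18, 25 and 29 FPKM at Day 37. In each run a gene model lies within the span of the gene beside it. Without strand information the reads of such a pair may not be separable, and their exons were not compared. Scaffolds not placed on chromosomes stood apart, with 12 of 38 genes lower (31.6%). All 7 genes described on 1 of them, SCF09, fell, with 1 to 2 FPKM at Day 45, against 5 to 8 FPKM at Day 37. These 7 entered through Day 37 alone, so a lower value at Day 45 was built in. They had 2 to 4 FPKM at Day 30 and 1 to 5 FPKM at Day 15, and each was highest at Day 37. Without the unplaced scaffolds 384 genes fell and 243 rose. Genes of short span moved more often: 5.27% of those spanning more than 500 and up to 1000 bp fell and 2.4% rose, against 1.13% and 0.947% of those longer than 5000 bp. Span counts introns, and whether this follows from level or from length was not tested.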

How the data were processed

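Per the labels and methods, polyadenylated RNA from FP15 pods was sequenced as paired reads of 150 bp, with 3 libraries per stage. The submitters' processing notes name fastp, HISAT2 2.0.5 and featureCounts 1.5.0-p3. The authors computed FPKM from the mapped fragments and deposited whole numbers, 1 per gene and stage, handled here as a score that follows FPKM since no fractions remain. No source used here says how 3 libraries became 1 value. The tests planned for values per library could not be run, so values, ratios and counts are described. There were 0 columns of other samples. Changes were log2((Day 45 + 1)/(Day 37 + 1)), which understates the change of low genes, over genes at 5 FPKM or more at either stage. Positions are those of the study's assembly of Ma3, a green-podded line, and not of FP15, and effects of sequence differences were not tested. The reference gene table supplied matched 0 gene IDs and was not used.

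Members, lists and splits were chosen with earlier results of these data known. Gene names are those of the study's supplementary tables, mostly Arabidopsis or legume matches. Genes named are all listed genes called, the 2 highest at Day 37 in each list, and over all genes the pair with the largest rise, the pair with the largest fall and the 2 highest at Day 37 and at Day 45. Of genes without a name, a few that rose or fell carry an ID, and the others, among them the second steepest fall, go by position. The rule gives 97 genes, of which the text gives those that carry a comparison, and further examples were picked after their values were seen. Alternatives covered the filter, the pseudocount, 4 scalings, rounding, the fold limit and unplaced scaffolds, the last chosen after seeing the data. Calculations used pandas 2.3.3 and numpy 2.4.6 under Python 3.11.15, and figures matplotlib 3.10.9.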

Additional observations from a re-analysis of the deposited data

How the results depend on the processing

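Falls outnumbered rises under each of the 13 alternatives, though by little with both columns set to the same sum and at 4-fold. With 10 FPKM or more at either stage 243 genes fell and 162 rose, with 5 FPKM or more at both 200 and 133, with 1 FPKM or more at either 1152 and 792, with a pseudocount of 5 156 and 116, in the worst case of rounding 235 and 163, at 1.5-fold 1109 and 776, and at 4-fold 37 and 35. A pseudocount of 0.1 gave the same 2-fold calls as 1 by construction. Setting both columns to the same sum gave 272 falls and 264 rises, the same without the highest genes 285 and 248, and quantile normalization 393 and 247. The median ratio left the counts at 396 and 245 because the median change was already 0, so it was no separate check. The share of genes with a lower value at Day 45 was 42.6%, and 43.7%, 41.6% and 39.9% under the 3 filters, 38% at the same sum and 32.4% in the worst case of rounding. The median change stayed within 0.1 of 0.

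Of the top 100 genes at Day 37, 26 were lower at 1.5-fold and 3 at 4-fold, and of the top 100 at Day 30, 30 and 4. Listed genes lower numbered 11, 9 and 35 under the 3 filters in the order above, 9 with a pseudocount of 5, 38 at 1.5-fold and 0 at 4-fold. Listed genes higher numbered 28 with 1 FPKM or more, 23 at 1.5-fold and 4 at 4-fold. Genes 4-fold higher numbered 35, and 49 with a pseudocount of 0.1, 47 with 1 FPKM or more at either stage, 9 with 5 FPKM or more at both stages, 14 with a pseudocount of 5 and 22 in the worst case of rounding. Of 33 named genes that rose or fell, 0 reversed and 11 dropped below 2-fold under some alternative that kept the gene, namely ANS/TT18, CHS/TT4, F3'H/TT7, MYB123/TT2, LHCB6, UGT78D2, YDA, MYB2, BZIP44, bZIP42 and the NAC100 homologue.

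No paired analysis was possible because each stage has 1 value per gene. For the same reason no replicate was left out. The spread between plants is unknown, and no difference was set against it.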
